A study of Homo sapiens with 42 samples.

Results

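The 10 genes described here code for the cyclins that drive cells through G1 phase, for cyclin A1 and for inhibitors of cyclin-dependent kinases (CDKs), and they were followed in 5 human acute myeloid leukaemia (AML) cell lines after decitabine or solvent. They were selected by name from the 60240 genes of the deposited expression table: the D-type cyclins CCND1, CCND2 and CCND3, the E-type cyclins CCNE1 and CCNE2, CCNA1, and the inhibitors CDKN1B, CDKN2B, CDKN2C and CDKN2D. The selection was made with the difference between decitabine and solvent in view. That difference is therefore described for these genes, without a test. Tests are given for their levels between solvent-treated lines and for other genes of the same pathway. Those other genes were also chosen with earlier results of these data known.

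D-type cyclins bind CDK4 and CDK6 and start the phosphorylation of the retinoblastoma protein RB, and E-type cyclins bind CDK2 and complete it, so that E2F factors are set free and DNA synthesis begins. Inhibitors of the INK4 family (CDKN2B, CDKN2C and CDKN2D, coding for p15, p18 and p19) bind CDK4 and CDK6, while CDKN1B codes for p27, which binds assembled cyclin and CDK complexes. Cyclin A1 is the cyclin A of male germ cells and is also known for high levels in some myeloid leukaemias. CDKN2B is known as a gene whose promoter is often methylated in myeloid leukaemia.

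Cells received decitabine at 100 nM once a day, first on day 0 and last on day 2, or DMSO as solvent, and stranded total RNA of 3 libraries per line and treatment was sequenced at 72 hours. Decitabine is a cytidine analogue that is built into DNA and depletes DNA methyltransferases. The lines were SKM-1, OCI-AML3, KG-1 and the pair MOLM-13 and MOLM-14, each an established AML line labelled as wild type, that is without an engineered change, and each group is a single line in culture. MOLM-13 and MOLM-14 are sister lines derived from the same leukaemia, and the design text of the series, unlike its sample labels, does not mention MOLM-14. The labels do not say whether replicates were separate cultures, so the p-values speak of the spread among libraries, part of which may be technical.

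Values are normalised counts, that is estimated counts divided by the authors' normalization factors, and differences are decitabine minus DMSO on the log2(normalised count + 1) scale with the standard error (SE) of 1 model over all 30 libraries. Depth was uneven: in KG-1, OCI-AML3 and MOLM-14 the replicate 2 libraries of both arms held 1.97 to 4.59 (in units of 1e+06 estimated reads in genes), the other libraries of these lines 12.6 to 31.2, and those of MOLM-13 and SKM-1 42.9 to 75. The labels also list MOLM-13 and SKM-1 in a separate block of sample numbers. Differences between lines across this split, in level or in response, cannot be told apart from differences between the blocks. All 8 myeloid markers were detected in the panel, and 7 of 9 erythroid markers stayed below a value of 10 in every library. MOLM-14 decitabine replicate 1 stood apart in a list of 8 lymphoid markers, with a sum of 4191, against 673 and 812 in the other decitabine libraries and 1124 to 1295 in DMSO libraries. Without it CCNA1, CCND1 and CCND3 differed in MOLM-14 by 2.65, 0.75 and 0.68, close to the values with it.

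Over the 10 genes and 5 lines, all 3 decitabine libraries lay above all 3 DMSO libraries in 16 of 50 cases and below them in 6. Among all 22168 genes tested, 16.7% of gene and line pairs were higher in this way and 11.9% lower. By line, decitabine was higher in 2 of the 10 genes and lower in 0 in KG-1 (10.2% and 6.44% of all genes), and higher in 3 and lower in 4 in MOLM-13 (22.8% and 17.0%). It was higher in 3 and lower in 0 in MOLM-14 (11.2% and 9.50%), and higher in 3 and lower in 0 in OCI-AML3 (10.1% and 7.42%). In SKM-1 it was higher in 5 and lower in 2 (29.2% and 18.9%). Because the genes were selected on this contrast, nothing is read from these counts beyond the pattern itself. CCNA1 was the member that was higher in all 5 lines. In 3 genes, CCND1, CCND2 and CCNE1, decitabine was wholly above DMSO in one line and wholly below it in another, as in 13.9% of all genes. All 10 genes passed the filter on low values (10 or more in 3 or more libraries), CDKN2B through the libraries of OCI-AML3 alone apart from 1 shallow KG-1 library.

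**Figure D1:**
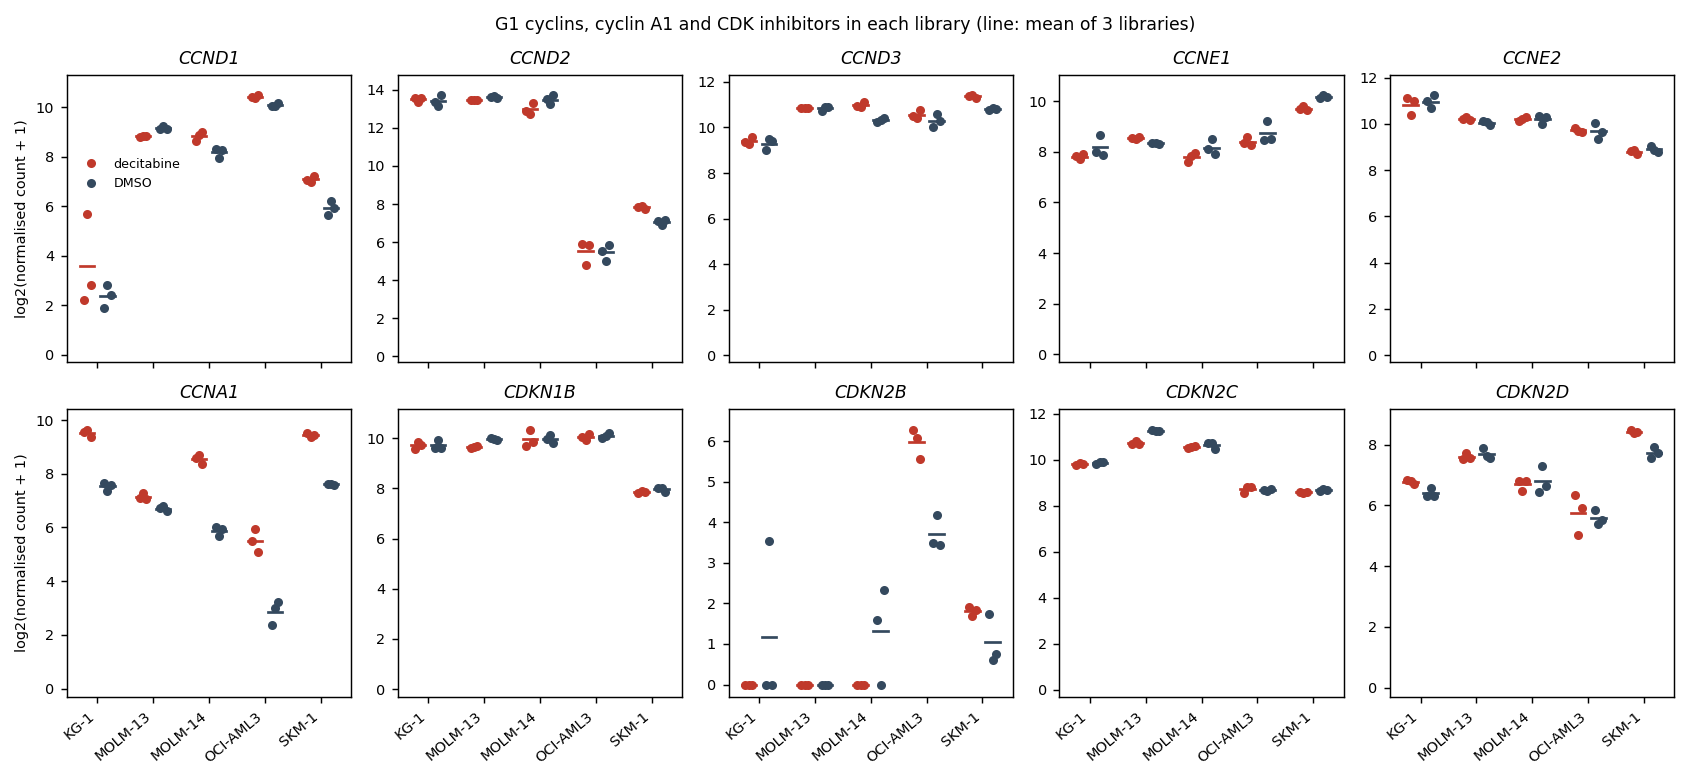
Level of each of the 10 genes in every library, as log2(normalised count + 1), with decitabine (red) left of DMSO (dark) in each line, and a short line at the mean of 3 libraries. CCNA1 sits higher after decitabine in all 5 lines, while CCND1, CCND2 and CDKN2B are set apart mainly by line.

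Which D-type cyclin a line used differed most between lines. Expressed per length (normalised count per kb of the longest coding transcript), CCND2 made up 86.2% ± 1.05 of the D-type cyclin level in decitabine-treated KG-1 and 86.2% ± 3.31 in DMSO-treated KG-1 (SD, n = 3 each). In MOLM-13 the CCND2 share per kb was 66.5% ± 0.322 after decitabine and 68.7% ± 1.39 in DMSO. In SKM-1 CCND3 took 94.3% ± 0.346 after decitabine and 95.6% ± 0.189 in DMSO. OCI-AML3 was the line in which CCND1 had a large part: CCND3 made up 65.7% ± 2.07 after decitabine and 66.7% ± 4.9 in DMSO, and CCND1 33.5% ± 2.15 after decitabine and 32.4% ± 4.62 in DMSO. The largest shift was in MOLM-14, where the CCND2 share per kb was 56.4% ± 3.3 after decitabine, against 74.4% ± 2.3 in DMSO. There CCND3 held 38.7% ± 2.76 after decitabine, against 22.8% ± 2.39 in DMSO. The shares of these 3 libraries per arm did not overlap.

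CCND1 (ENSG00000110092.4, GRCh38 chromosome 11, 69641087 to 69654474, plus strand) had opposite differences in the sister lines. In MOLM-13 it had normalised counts of 443, 456 and 457 after decitabine, against 550, 614 and 557 in DMSO, a difference of -0.34 (SE 0.47). In MOLM-14 it had 393, 470 and 507 after decitabine, against 320, 244 and 312 in DMSO, a difference of 0.65. The arms did not overlap in either line, and after decitabine the means of the pair were alike, 457 in MOLM-14 and 452 in MOLM-13. In OCI-AML3, where its level was highest, CCND1 had 1373, 1318 and 1436 after decitabine, against 1074, 1051 and 1145 in DMSO (0.34). In SKM-1 it had 133, 124 and 149 after decitabine, against 49.5, 72.9 and 60.2 in DMSO, a ratio of means of 2.23 (1.16 on the log2 scale). These arms were also apart, with decitabine above DMSO. KG-1 had almost none: 3.64, 50.1 and 6.11 after decitabine and 2.70, 5.95 and 4.27 in DMSO, with the value of 50.1 in a shallow library. Without that library the KG-1 difference was 0.16 instead of 1.21. CCND1 overlaps LTO1 on the opposite strand (117.8 to 312.7), and because it is not stated whether counting used strand, reads of the overlap cannot be assigned with certainty.

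Between DMSO-treated lines CCND1 spanned 7.73 on the log2 scale (limma F-test, p adjusted by the Benjamini-Hochberg method over all genes tested, as everywhere below, 1.08e-12), and the 9 genes other than CDKN2B, which is set aside below, all differed between lines by this test, as did 77.9% of all genes tested. Its order was OCI-AML3, MOLM-13, MOLM-14, SKM-1 and KG-1. MOLM-14 was above SKM-1 by 2.25 (SE 0.47, limma, adjusted p = 0.000294; 50.4% of all genes differed between these lines), and SKM-1 above KG-1 by 3.57 (limma, adjusted p = 6.19e-07; 49.2% of genes). OCI-AML3 was above MOLM-13 by 0.93 and MOLM-13 above MOLM-14 by 0.98, and neither passed (limma, adjusted p = 0.11 for both; background 47.9% and 36.2%). Without KG-1 decitabine replicate 2 both steps passed (0.93 and 0.98, limma, adjusted p = 0.000362 and 0.000317).

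CCND2 (ENSG00000118971.8, chromosome 12, 4273772 to 4305350, plus strand) was high in 3 lines and low in 2. In DMSO the order was MOLM-13 (12712 ± 459), MOLM-14 (11540 ± 1828), KG-1 (10996 ± 2119), SKM-1 (133 ± 11.8) and OCI-AML3 (44.7 ± 13.1; SD, n = 3 each). The first 3 lines did not differ beyond their spread (0.15 and 0.08 between neighbours, limma, adjusted p = 0.65 and 0.83; 44.7% of all genes differed between MOLM-14 and KG-1). KG-1 was above SKM-1 by 6.34 (SE 0.22, limma, adjusted p = 2.45e-17) and SKM-1 above OCI-AML3 by 1.60 (limma, adjusted p = 1.79e-06; 50.6% of genes). SKM-1 stayed in the low range after decitabine: it had 225, 241 and 214 after decitabine, against 137, 120 and 143 in DMSO, a difference of 0.76 (SE 0.22). In MOLM-13 the values were 11419, 11213 and 11278 after decitabine, against 12684, 13185 and 12269 in DMSO (-0.17). In these 2 lines the arms did not overlap, in SKM-1 with decitabine above DMSO and in MOLM-13 below it; under quantile normalization the MOLM-13 arms overlapped (-0.06). MOLM-14 had 7636, 6676 and 10111 after decitabine, against 11627, 9671 and 13323 in DMSO (-0.51), with overlap through 1 library of each arm and no overlap once its shallow libraries were left out (-0.50). Arms with fewer libraries separate more readily. CCND2 overlaps AC008012.1 on the same strand (0 to 267.1) and CCND2-AS1 on the opposite strand (0 to 8.88), so some of its reads cannot be assigned with certainty.

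CCND3 (ENSG00000112576.13, chromosome 6, 41934933 to 42050357, minus strand) was present in every line, with a span of 1.54 between DMSO-treated lines. In MOLM-14 it had 1955, 1918 and 2240 after decitabine, against 1222, 1272 and 1383 in DMSO, a ratio of means of 1.58 (0.66 on the log2 scale, SE 0.13). In SKM-1 it had 2692, 2721 and 2497 after decitabine, against 1762, 1830 and 1777 in DMSO (0.56). In both lines every decitabine library was above every DMSO library. KG-1, MOLM-13 and OCI-AML3 overlapped, with differences of 0.10, 0.02 and 0.26. Without the 6 shallow libraries OCI-AML3 had 0.49 with separate arms, again with fewer libraries per arm. In DMSO MOLM-13 and SKM-1 stood at the top and did not differ beyond their spread (0.03, limma, adjusted p = 0.936; 40.6% of genes differed). SKM-1 was above MOLM-14 by 0.47 (limma, adjusted p = 0.00403), MOLM-14 and OCI-AML3 lay within 0.04 (limma, adjusted p = 0.854; 38.3% of genes), and OCI-AML3 was above KG-1 by 1.00 (limma, adjusted p = 5.99e-07; 43.4% of genes). Summed per kb, the 3 D-type cyclins came to 1111 to 1203 in decitabine-treated SKM-1, against 768.5 to 800 in DMSO, and to 2609 to 2634 in decitabine-treated MOLM-13, against 2790 to 2977 in DMSO. In the other lines the summed levels of the arms overlapped.

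**Figure D2:**
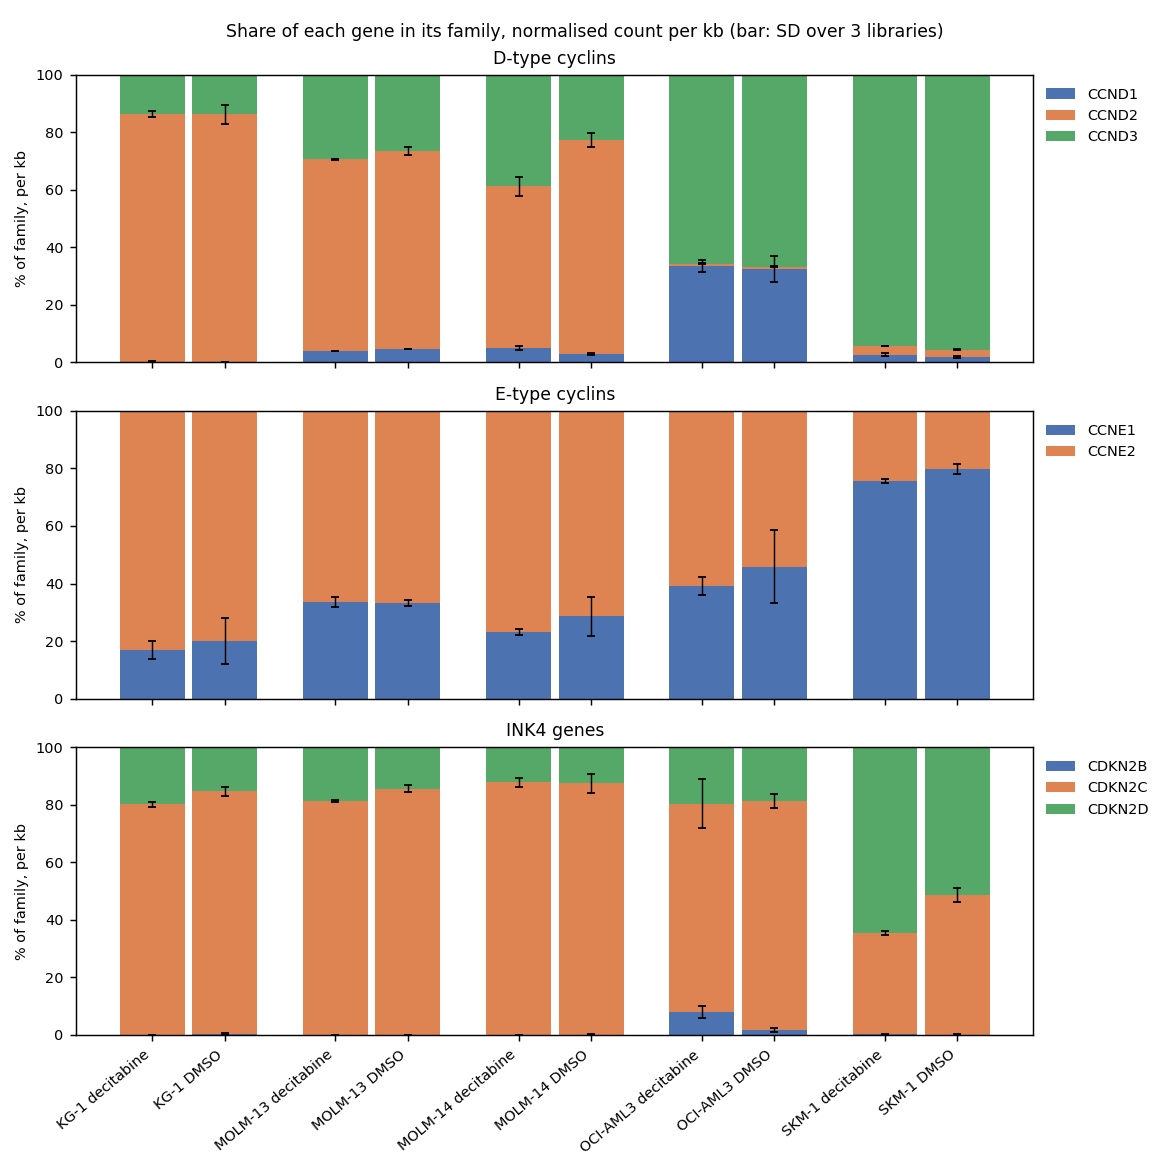
Share of each gene in its family as percent of the summed normalised count per kb, for D-type cyclins, E-type cyclins and the 3 selected INK4 genes, with decitabine left of DMSO in each line and bars for the SD over 3 libraries at the boundaries. CCND2 dominates KG-1, MOLM-13 and MOLM-14 and CCND3 dominates SKM-1, and the CCND2 share in MOLM-14 is 56.4% after decitabine and 74.4% in DMSO.

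The E-type cyclins, summed per kb, were lower after decitabine in SKM-1 (514 to 574, against 699 to 726 in DMSO) and higher in MOLM-13 (531 to 551, against 452 to 494 in DMSO), and overlapped in the other 3 lines. CCNE1 (ENSG00000105173.14, chromosome 19, 29811898 to 29824308, plus strand) was highest in SKM-1, with 815, 887 and 798 after decitabine, against 1126, 1201 and 1156 in DMSO, a difference of -0.48 (SE 0.19). MOLM-13 went the other way, with 370, 357 and 382 after decitabine, against 328, 327 and 318 in DMSO (0.19). Neither pair of arms overlapped. KG-1, MOLM-14 and OCI-AML3 differed by -0.37, -0.37 and -0.34 with overlapping libraries. Without the 6 shallow libraries these differences were -0.08, -0.22 and -0.18, and of these lines only OCI-AML3 then had separate arms. In DMSO SKM-1 was above OCI-AML3 by 1.45 (limma, adjusted p = 5.56e-07), and the further steps, OCI-AML3 over MOLM-13 (0.39), MOLM-13 over KG-1 (0.16) and KG-1 over MOLM-14 (0.02), did not pass (limma, adjusted p = 0.0939, 0.508 and 0.971; 49.5% of genes differed between MOLM-13 and KG-1). The step of 0.16 passed without the 6 shallow libraries (0.41, limma, adjusted p = 0.0014). In DMSO-treated OCI-AML3 CCNE1 had 349, 600 and 365, the 600 in the shallow replicate 2. Leaving out replicate 1 gave that library more weight, and the step of 0.39 became 0.53 and passed (limma, adjusted p = 0.0396). This step also passed narrowly without KG-1 DMSO replicate 2 (0.39, limma, adjusted p = 0.05).

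CCNE2 (ENSG00000175305.17, chromosome 8, 94879770 to 94896678, minus strand) was highest in KG-1 and lowest in SKM-1, the line in which CCNE1 was highest. KG-1 was above MOLM-14 by 0.75 (limma, adjusted p = 0.000562), MOLM-14 and MOLM-13 lay within 0.16 (limma, adjusted p = 0.507), MOLM-13 was above OCI-AML3 by 0.37 (limma, adjusted p = 0.0722), and OCI-AML3 above SKM-1 by 0.79 (limma, adjusted p = 0.000319). The step of 0.37 passed without KG-1 decitabine replicate 2 (limma, adjusted p = 0.0333) and, as 0.54, without OCI-AML3 DMSO replicate 1 (limma, adjusted p = 0.0132). DMSO-treated OCI-AML3 had 1045, 656 and 811, the 656 in the shallow replicate 2, which weighs more once replicate 1 is left out. After decitabine CCNE2 was higher in MOLM-13, with 1169, 1251 and 1147, against 1111, 1093 and 986 in DMSO (0.16, SE 0.17), and the other 4 lines overlapped with differences between -0.14 and 0.04. Per kb, CCNE1 formed 75.5% ± 0.695 of the E-type level in decitabine-treated SKM-1 and 79.9% ± 1.8 in DMSO-treated SKM-1 (SD, n = 3 each), while CCNE2 was the larger part in the means of the other 4 lines in both arms. CCNE2 overlaps INTS8 (1269 to 6292) and NDUFAF6 (272.7 to 1196) on the opposite strand, and its level carries the same uncertainty of strand.

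CCNA1 (ENSG00000133101.10, chromosome 13, 36431520 to 36442882, plus strand) had the largest differences of the 10 genes in KG-1, MOLM-14, OCI-AML3 and SKM-1. In KG-1 it had 756, 794 and 661 after decitabine, against 200, 164 and 193 in DMSO, a ratio of means of 3.97 (1.99 on the log2 scale, SE 0.20). In MOLM-14 it had 388, 417 and 326 after decitabine, against 63.7, 50.9 and 60.5 in DMSO (ratio 6.46, log2 difference 2.67). The lowest decitabine library of each line was far above its highest DMSO library. In OCI-AML3 it had 44.2, 60.0 and 33.0 after decitabine, against 4.20, 6.99 and 8.33 in DMSO (ratio 7.03, log2 difference 2.64). In SKM-1 it had 724, 657 and 701 after decitabine, against 197, 197 and 189 in DMSO (ratio 3.57, log2 difference 1.83). These 4 lines thus had ratios of 3.57 to 7.03 at DMSO means between 6.51 and 194. MOLM-13 differed least, with 134, 155 and 132 after decitabine, against 104, 109 and 96.2 in DMSO (ratio 1.36, log2 difference 0.44), still without overlap. Its difference was 0.21 under quantile normalization. Of all genes tested, 111 (0.501%) were higher without overlap in all 5 lines. In bulk RNA, more cells with a transcript and more of it per cell cannot be told apart, nor can fewer cells and less per cell.

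In DMSO CCNA1 was highest in SKM-1 and KG-1, which did not differ beyond their spread (0.07, limma, adjusted p = 0.801). KG-1 was above MOLM-13 by 0.84 (limma, adjusted p = 0.00105; under quantile normalization 0.54, limma, adjusted p = 0.0699). MOLM-13 was above MOLM-14 by 0.82 (limma, adjusted p = 0.00216) and MOLM-14 above OCI-AML3 by 3.02 (SE 0.20, limma, adjusted p = 6.76e-12). After decitabine the order of the sister lines was the opposite, with a mean of 377 in MOLM-14 and 141 in MOLM-13.

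Several marker lists also moved with the treatment. A list of 10 monocyte and macrophage markers, of which CD14 stayed below 10 in every library, had a summed level of 3173 to 3406 after decitabine, against 2321 to 2480 in DMSO, in KG-1. In MOLM-13 it was 17092 to 17660 after decitabine, against 8270 to 8840 in DMSO, and in MOLM-14 11196 to 12178 after decitabine, against 5385 to 5721 in DMSO. In OCI-AML3 it was 12057 to 14997 after decitabine, against 4730 to 5026 in DMSO, and in SKM-1 43154 to 44170 after decitabine, against 24502 to 26100 in DMSO. The sum of this list was therefore higher after decitabine in every line, which does not say that each marker was. A list of 10 markers of cycling cells was higher after decitabine in KG-1 (59979 to 61403, against 49378 to 49722 in DMSO) and lower in MOLM-13 (30531 to 32544, against 39476 to 42602 in DMSO) and SKM-1 (50535 to 54753, against 64460 to 67079 in DMSO). It overlapped in MOLM-14 (40464 to 47372 after decitabine, against 46426 to 51815 in DMSO) and OCI-AML3 (51342 to 61309 after decitabine, against 54713 to 55945 in DMSO). The summed myeloid markers were higher after decitabine in KG-1 (24968 to 26297, against 21883 to 23368 in DMSO), MOLM-13 (21390 to 22476, against 18787 to 19440 in DMSO) and MOLM-14 (23818 to 25913, against 19619 to 22004 in DMSO), and lower in SKM-1 (48627 to 59026, against 65356 to 66381 in DMSO). Lymphoid markers were higher in SKM-1 (217 to 232, against 72.2 to 98.9 in DMSO), KG-1 (620 to 664, against 411 to 451 in DMSO), MOLM-13 (97.3 to 122, against 78.4 to 79.5 in DMSO) and OCI-AML3 (41.8 to 69.5, against 25.3 to 39.0 in DMSO). A list of 6 fibroblast markers was higher in OCI-AML3 (280 to 309, against 79.4 to 160 in DMSO), SKM-1 (92.3 to 93.9, against 27.2 to 45.0 in DMSO) and KG-1 (27.3 to 88.2, against 4.96 to 16.9 in DMSO). In OCI-AML3 the erythroid sum was higher (104 to 119, against 64.9 to 73.9 in DMSO) and that of 5 epithelial markers lower (10.2 to 18.1, against 25.9 to 59.7 in DMSO), and the myeloid, lymphoid, fibroblast, erythroid and epithelial sums overlapped in the lines not given here. The part of these markers in the values of the 10 genes was not tested.

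DNA methyltransferases act on cytosines of CpG dinucleotides, and the promoters of 3 members are shown with every CpG in capitals: CCNA1, higher in all 5 lines, CDKN2B, higher in 1 line and at or near 0 in the others, and CDKN1B, which overlapped between arms in 4 lines. DNA methylation was not measured, so the letters show only where CpGs lie. Each run reads 5′ to 3′ on the gene's strand and covers 250 bases before to 50 after a RefSeq start (GRCh38.p14): chr13:36431705-36432004 on the plus strand for CCNA1, chr9:22009256-22009555 on the minus strand for CDKN2B and chr12:12717118-12717417 on the plus strand for CDKN1B.
CCNA1: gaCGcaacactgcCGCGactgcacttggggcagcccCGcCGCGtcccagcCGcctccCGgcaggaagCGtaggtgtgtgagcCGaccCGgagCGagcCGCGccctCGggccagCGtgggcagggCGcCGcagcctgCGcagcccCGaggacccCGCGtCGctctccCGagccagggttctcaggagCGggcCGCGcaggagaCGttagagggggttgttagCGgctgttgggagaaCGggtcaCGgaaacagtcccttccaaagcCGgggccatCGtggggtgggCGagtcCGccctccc
CDKN2B: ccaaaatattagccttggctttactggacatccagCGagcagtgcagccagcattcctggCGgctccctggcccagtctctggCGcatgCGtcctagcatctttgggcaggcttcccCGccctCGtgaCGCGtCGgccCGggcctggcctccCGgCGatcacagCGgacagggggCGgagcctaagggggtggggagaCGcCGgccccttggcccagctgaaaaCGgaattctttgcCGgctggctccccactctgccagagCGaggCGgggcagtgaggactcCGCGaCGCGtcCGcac
CDKN1B: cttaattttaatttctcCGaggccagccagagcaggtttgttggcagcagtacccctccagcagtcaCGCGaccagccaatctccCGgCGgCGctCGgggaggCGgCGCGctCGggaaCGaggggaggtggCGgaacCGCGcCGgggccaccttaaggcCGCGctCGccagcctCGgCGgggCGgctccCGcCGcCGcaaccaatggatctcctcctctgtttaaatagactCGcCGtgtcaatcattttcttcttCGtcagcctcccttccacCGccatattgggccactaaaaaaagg
The CCNA1 run holds 35 CpGs, the CDKN2B run 25 and the CDKN1B run 29. All are above the median of 14 among 35116 RefSeq promoters of this length, of which 14.1%, 32% and 24.2% hold at least as many. For 7 of the 10 genes 11 promoters were listed, with 3 to 47 CpGs, the most in CCNE1. Whether the number of CpGs goes with the differences between arms was not tested.

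Among the inhibitors, CDKN1B (ENSG00000111276.11, chromosome 12, 12715058 to 12722371, plus strand) differed little after decitabine. It was lower in MOLM-13, with 776, 796 and 816 after decitabine, against 1025, 1012 and 972 in DMSO (-0.33, SE 0.13), and overlapped in KG-1 (0.00), MOLM-14 (-0.01), OCI-AML3 (-0.06) and SKM-1 (-0.12). By line, SKM-1 stood apart, with 224 to 234 after decitabine and 229 to 259 in DMSO, and KG-1 was above it by 1.75 in DMSO (SE 0.13, limma, adjusted p = 3.84e-11). The other 4 lines did not differ between neighbours (steps of 0.01 to 0.25, limma, adjusted p = 0.126 to 0.984). MOLM-14 over KG-1, the step of 0.25, passed without KG-1 DMSO replicate 2 (0.36, limma, adjusted p = 0.0414).

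CDKN2B (ENSG00000147883.12, chromosome 9, 22002903 to 22009363, minus strand) was seen clearly in OCI-AML3 alone. It had 77.2, 66.8 and 46.4 after decitabine, against 10.2, 17.0 and 9.95 in DMSO, a ratio of means of 5.13 (2.28 on the log2 scale, SE 0.65), without overlap. In MOLM-13 it was listed at 0 in all 6 libraries. In KG-1 and MOLM-14 it was listed at 0 after decitabine, and in DMSO at 0, 10.6 and 0 in KG-1 and 2.01, 0 and 4.06 in MOLM-14, where 10.6 is the value of a shallow library. In SKM-1 it had 2.77, 2.22 and 2.56 after decitabine, against 2.35, 0.53 and 0.70 in DMSO. At these levels no difference can be read outside OCI-AML3. Because OCI-AML3 is the line that brought CDKN2B past the filter, its levels are a description and no test between lines is read from them.

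Genes around CDKN2B on chromosome 9, named after their values were seen, showed different patterns. CDKN2A, which codes for the INK4 protein p16 and for ARF, had 68.3, 89.0 and 75.0 in decitabine-treated OCI-AML3, against 17.9, 19.6 and 29.8 in DMSO. In KG-1, where CDKN2B was listed at 0 in 5 of 6 libraries, it had 88.7, 109.7 and 45.6 after decitabine, against 29.6, 55.6 and 25.0 in DMSO. In MOLM-13 it stayed at or below 1.53 in every library. In MOLM-14 it was 0, 33.3 and 0 after decitabine and 1.84, 0 and 2.89 in DMSO, the value of 33.3 coming from a shallow library. SKM-1 had 293, 300 and 328 after decitabine and 337, 397 and 389 in DMSO. The sister lines thus had close to no transcript of either INK4 gene of this locus. MTAP, the neighbouring gene of methionine salvage, was present in all 30 libraries (685 to 4606). CDKN2B-AS1, the noncoding gene that overlaps CDKN2B on the opposite strand, had 5.38 to 231.8, with 65.3 to 70.0 in decitabine-treated OCI-AML3 and 40.2 to 60.6 in DMSO. Its SKM-1 values, 189 to 228 after decitabine and 194 to 232 in DMSO, were the highest of the panel, so the CDKN2B values did not follow those of the antisense gene across lines.

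CDKN2C (ENSG00000123080.12, chromosome 1, 50960745 to 50974633, plus strand) was the main one of the 3 selected INK4 genes per kb in 4 lines, with 72.3% to 87.8% of their sum after decitabine and 79.5% to 87.4% in DMSO. In MOLM-13 it had 1669, 1821 and 1661 after decitabine, against 2526, 2447 and 2438 in DMSO (-0.53, SE 0.08), a gap far wider than either arm. SKM-1 was lower by a little, with 386, 374 and 388 after decitabine, against 401, 420 and 408 in DMSO (-0.10), a separation that was lost when libraries were scaled without mitochondrial genes (-0.04). KG-1, MOLM-14 and OCI-AML3 overlapped (-0.06, -0.08 and 0.04). In DMSO the lines formed steps, with MOLM-13 above MOLM-14 by 0.62, MOLM-14 above KG-1 by 0.77 and KG-1 above OCI-AML3 by 1.19 (limma, adjusted p = 1.81e-06, 3.1e-08 and 1.23e-11), and OCI-AML3 and SKM-1 lay within 0.01 (limma, adjusted p = 0.963).

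CDKN2D (ENSG00000129355.7, chromosome 19, 10566462 to 10569059, minus strand) was higher after decitabine in SKM-1, with 358, 335 and 337, against 187, 241 and 212 in DMSO (ratio of means 1.61, log2 difference 0.69, SE 0.25). In KG-1 it had 113, 112 and 102 after decitabine, against 77.8, 94.3 and 78.4 in DMSO (0.39), and the arms overlapped under quantile normalization (0.26). MOLM-13, MOLM-14 and OCI-AML3 overlapped (-0.09, -0.10 and 0.18). In SKM-1 CDKN2D was the larger part of the summed level per kb of the 3 selected INK4 genes, CDKN2A not included, 64.6% ± 0.768 after decitabine and 51.4% ± 2.58 in DMSO (SD, n = 3 each), without overlap. In DMSO SKM-1 and MOLM-13 did not differ beyond their spread (0.05, limma, adjusted p = 0.946), MOLM-13 was above MOLM-14 by 0.91 (limma, adjusted p = 0.0051), MOLM-14 and KG-1 did not pass (0.39, limma, adjusted p = 0.21), and KG-1 was above OCI-AML3 by 0.81 (limma, adjusted p = 0.00885). Over the 9 genes other than CDKN2B, 18 of the 36 steps between neighbouring DMSO-treated lines passed, against 21.5% of such steps over all genes tested.

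**Figure D3:**
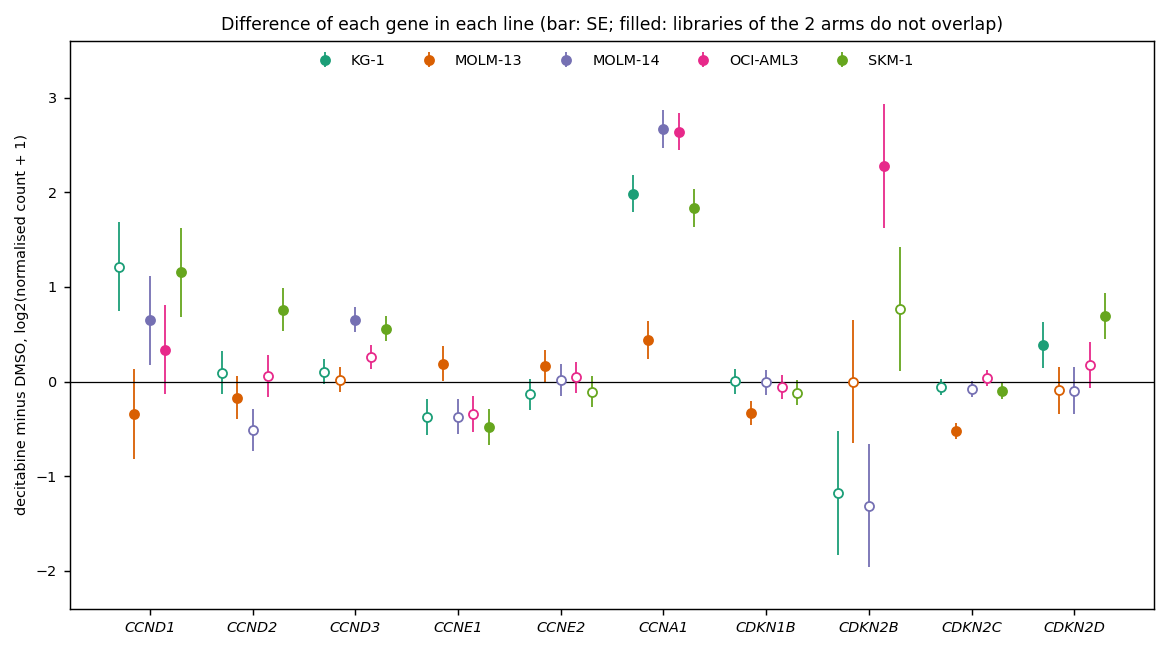
Decitabine minus DMSO on the log2(normalised count + 1) scale for each gene in each line, with bars for the SE of the model and filled points where the 3 libraries of each arm do not overlap. All 5 points of CCNA1 are filled and above 0, the lowest at 0.44 (MOLM-13) and the highest at 2.67 (MOLM-14), while CCND1, CCND2 and CCNE1 have filled points on both sides of 0.

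Between the sister lines in DMSO, 4 of the 9 genes other than CDKN2B differed by limma. This share is near the 36.2% of all genes given above. All 4 were higher in MOLM-13: CDKN2C by 0.62 and CDKN2D by 0.91, CCNA1 by 0.82 and CCND3 by 0.50 (limma, adjusted p = 1.81e-06, 0.0051, 0.00216 and 0.00391). CCND1 (0.98), CCND2 (0.15), CCNE1 (0.18), CCNE2 (-0.16) and CDKN1B (0.01) did not pass (limma, adjusted p = 0.11 to 0.984). CDKN2B differed by -1.31 at levels near 0 and is not read by a test. The sister lines lie on either side of the split in depth and sample numbers given above, so line and block cannot be told apart.

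For the 4 genes whose line means in DMSO spanned more than 3 on the log2 scale, the other genes with the most similar level over the 10 group means were looked up among 22167 genes. CCND1 was most like MPDU1 (Pearson r = 0.992), a gene of glycosylation, and LAMTOR2 (0.990), of the lysosomal Ragulator complex. CCND2 was most like PRSS57 (0.987), a serine protease of neutrophil granules, and SPAG6 (0.976), a sperm axoneme gene. CCNA1 was most like TNFAIP8L1 (0.959) and AC007040.2 (0.939), and CDKN2B like ISLR (0.975) and CRISPLD2 (0.972). These are the highest of many correlations over 10 means that share lines, and are a description only.

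The other parts of the G1 pathway were read from 84 genes in 7 lists, all of which passed the filter, by the mean of the 5 line differences. Of the 84 genes 11 rose and 23 fell (limma, adjusted p below 0.05), against 12.0% rising and 7.52% falling among all genes tested, and the median was -0.04, against 0.06 over all genes. Because the lists were chosen with earlier results of these data known, these counts are a description and not independent evidence. Without SKM-1 7 rose and 14 fell. A response that differed between lines was called in 11 of the 84 (F-test of limma, against 9.46% of all genes). It was called in 22 without the 6 shallow libraries and in 7 without SKM-1 decitabine replicate 2. Shares over all genes were not counted in these alternative fits, so their counts have no background.

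Of 10 kinases and activators of G1 and S phase 6 fell, 0 rose (0 also at an unadjusted p below 0.05) and 4 were not called, with a median of -0.25. CDK4, a kinase partner of D-type cyclins, fell by 0.36 (SE 0.06, limma, adjusted p = 7.1e-05) and was lower on the mean in all 5 lines, for example with 858, 733 and 925 in decitabine-treated MOLM-14, against 1262, 1186 and 1177 in DMSO. CDK6, the other partner, fell by 0.34 (SE 0.05, limma, adjusted p = 5.26e-05). In SKM-1 it had 1913, 2022 and 1910 after decitabine, against 3014, 2808 and 2843 in DMSO, and in MOLM-14 its arms overlapped (-0.06). MNAT1, a subunit of the CDK-activating kinase, fell by 0.27 and CDC25A, a phosphatase that activates CDK2, by 0.29 (limma, adjusted p = 0.000259 and 0.00146). The call of CDC25A was lost without SKM-1 (-0.21, limma, adjusted p = 0.103).

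RB and E2F genes followed the same direction in 6 of 13, with 0 rising (0 also unadjusted) and a median of -0.13. RB1 fell by 0.23 (SE 0.04) and RBL1, its relative p107, by 0.29 (limma, adjusted p = 0.000221 and 2.27e-05). TFDP1, the dimer partner of E2F factors, fell by 0.29 (limma, adjusted p = 0.000168). E2F5 fell by 0.38, a call lost when SKM-1, MOLM-13 or MOLM-14 was left out (limma, adjusted p = 0.0724, 0.0641 and 0.0515). TFDP2 (-0.39), another dimer partner, and E2F1 (-0.17), an activator of S-phase genes, passed narrowly (limma, adjusted p = 0.0401 and 0.0333). They lost the call without 18 and 10 of the 30 single libraries (limma, adjusted p up to 0.0772 and 0.0609), and without SKM-1 (limma, adjusted p = 0.0947 and 0.435).

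Of 3 inhibitors outside the selected set 2 rose and 0 fell (0 also at an unadjusted p below 0.05). CDKN1A, which codes for the p53-induced inhibitor p21, rose by 0.98 (SE 0.10, limma, adjusted p = 1.16e-07). It had 6600, 6137 and 6076 in decitabine-treated MOLM-14, against 3537, 3187 and 2955 in DMSO, and 856, 847 and 700 in decitabine-treated SKM-1, against 381, 367 and 344 in DMSO. KG-1 carried little of it, with 58.7, 23.9 and 34.0 after decitabine, against 14.5, 6.15 and 13.2 in DMSO. CDKN1C, which codes for p57, passed at 1.09 (SE 0.35, limma, adjusted p = 0.0267) with low levels everywhere, the highest being 30.0, 40.1 and 32.5 in decitabine-treated SKM-1, against 3.25, 1.03 and 3.58 in DMSO. Without SKM-1 it had 0.52 and did not pass (limma, adjusted p = 0.518), nor did it without MOLM-13 or MOLM-14 (limma, adjusted p = 0.17 and 0.107). It also lost the call without OCI-AML3 DMSO replicate 3 or SKM-1 DMSO replicate 2 (limma, adjusted p = 0.05 to 0.0512). CDKN2A had 0.68 (SE 0.36), which did not pass (limma, adjusted p = 0.222), but did without MOLM-14 (0.71, limma, adjusted p = 0.00466) and with a pseudocount of 10 (0.53, limma, adjusted p = 0.0215).

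Of 14 genes of cyclin and p27 turnover 4 fell and 0 rose (0 also unadjusted; median -0.05). SKP2, the ubiquitin ligase subunit that marks p27, fell by 0.36 (SE 0.04, limma, adjusted p = 2.88e-07), with line differences between -0.49 and -0.29. CUL1, the scaffold of that ligase, fell by 0.26 (limma, adjusted p = 0.000211). COPS5 fell by 0.17, a call lost without MOLM-13 (limma, adjusted p = 0.125). KPNA2 fell by 0.10, and with 0.34 in KG-1 and -0.41 in SKM-1 its call was lost without SKM-1 (-0.03, limma, adjusted p = 0.732) or MOLM-13 (limma, adjusted p = 0.277) and under quantile normalization (limma, adjusted p = 0.655) or scaling without mitochondrial genes (limma, adjusted p = 0.145).

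Among 10 S, G2 and M phase genes 2 fell and 1 rose (median -0.11). CCNA2, the somatic cyclin A and closest relative of CCNA1, fell by 0.46 (SE 0.04, limma, adjusted p = 4.02e-09). In SKM-1 it had 2892, 2903 and 2690 after decitabine, against 4496, 4660 and 4585 in DMSO, and in KG-1 3269, 2917 and 3338 after decitabine, against 3313, 2895 and 3416 in DMSO. Its arms were thus far apart in SKM-1 and alike in KG-1, and its response was not the same in all lines (F-test of limma, adjusted p = 0.0015). CCNB1, of mitotic entry, fell by 0.18 (limma, adjusted p = 0.00191), with 0.39 in KG-1 and -0.56 in SKM-1, and lost the call when MOLM-13, MOLM-14 or SKM-1 was left out (limma, adjusted p = 0.117, 0.0722 and 0.28). CDC25B, a phosphatase that activates CDK1, rose by 0.35 (SE 0.06, limma, adjusted p = 6.76e-05).

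Cyclins and CDKs outside the G1 step were mixed, with 4 of 19 rising and 2 falling (median -0.02). CDK9, of transcription elongation, rose by 0.35 and CCNL2, of splicing, by 0.23 (limma, adjusted p = 0.000445 and 0.0011), the second not without SKM-1 (limma, adjusted p = 0.0563). CDK14 rose by 0.35 and did not pass without MOLM-13 (0.20, limma, adjusted p = 0.292) or under quantile normalization (limma, adjusted p = 0.0938). CCNG2 rose by 0.31 (limma, adjusted p = 0.0333), and its call did not hold without SKM-1 (0.23, limma, adjusted p = 0.302), MOLM-14 (0.20, limma, adjusted p = 0.157), KG-1 (limma, adjusted p = 0.098) or any of 13 of the 30 single libraries (limma, adjusted p up to 0.0617). CDK8, of the Mediator kinase module, fell by 0.23 (limma, adjusted p = 5.81e-05), and its partner CCNC by 0.15 (limma, adjusted p = 0.028), the call of CCNC being lost without MOLM-13 (-0.09, limma, adjusted p = 0.364), SKM-1 (limma, adjusted p = 0.233), KG-1 (limma, adjusted p = 0.191) or 4 single libraries, under quantile normalization (limma, adjusted p = 0.119) and in 3 further alternatives.

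Of 15 upstream regulators of D-type cyclins and INK4 genes 4 rose and 3 fell (median 0.01). MYC, which drives entry into the cell cycle, fell by 0.74 (SE 0.05, limma, adjusted p = 1.8e-11). It had 3764, 3666 and 3732 in decitabine-treated MOLM-14, against 8385, 9867 and 7992 in DMSO, and 2558, 2286 and 2181 in decitabine-treated SKM-1, against 5541, 6243 and 5791 in DMSO. ID1 and ID2, which block E-protein transcription factors, rose by 0.99 (SE 0.11) and 0.63 (SE 0.05; limma, adjusted p = 5.26e-07 and 3.31e-09). ID2 was lower in MOLM-13 (-0.19) and higher in SKM-1 (1.27). STAT5A, a cytokine-responsive factor, rose by 0.52 (SE 0.12, limma, adjusted p = 0.00255), with -0.33 in KG-1 and 1.42 in OCI-AML3. EZH2, which silences INK4 genes as part of a Polycomb complex, fell by 0.20 (limma, adjusted p = 0.0148), a call lost without MOLM-14 or SKM-1 (limma, adjusted p = 0.186 and 0.146). FOXO3 (0.16) and BMI1 (-0.23) passed narrowly (limma, adjusted p = 0.0314 and 0.0488). Without 8 and 22 of the 30 single libraries their adjusted p, as rounded, was 0.05 or more (limma, adjusted p up to 0.0551 and 0.0881). FOXO3 also lost the call without SKM-1 (limma, adjusted p = 0.297) or KG-1 (limma, adjusted p = 0.208), and BMI1 without MOLM-13 (-0.13, limma, adjusted p = 0.455) or MOLM-14 (limma, adjusted p = 0.199) and under quantile normalization (limma, adjusted p = 0.161).

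**Figure D4:**
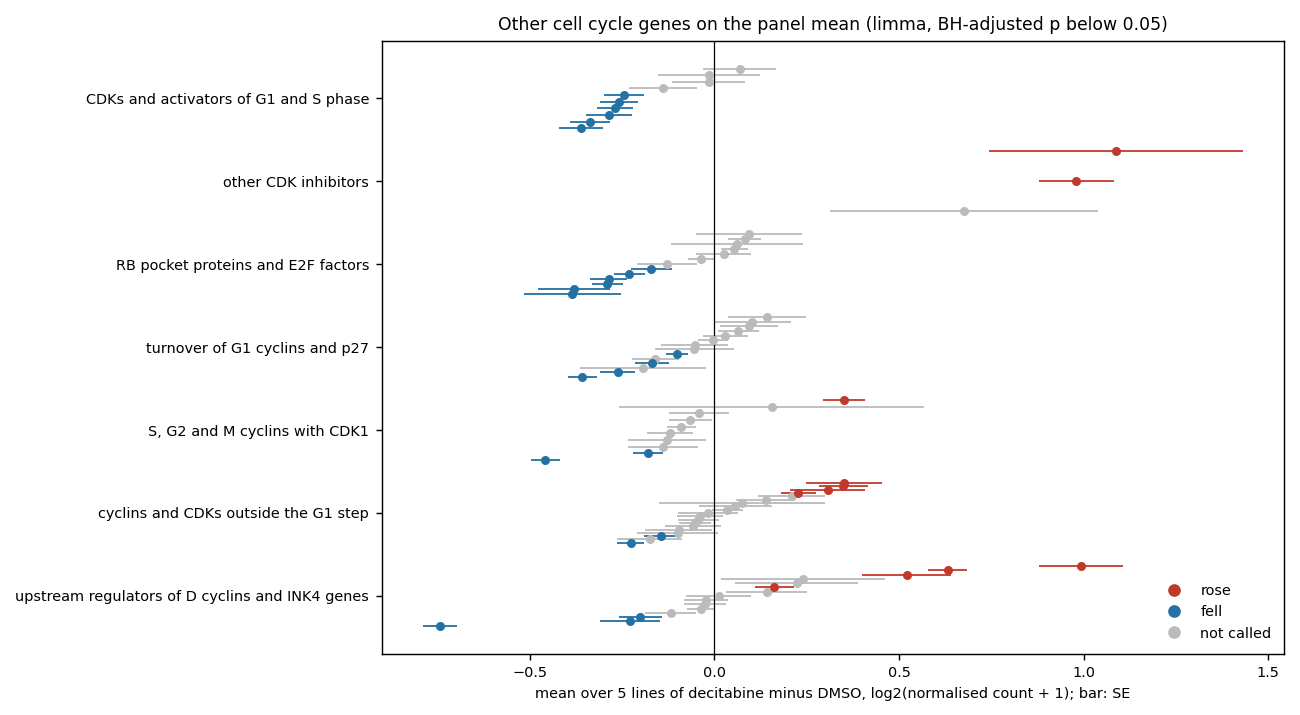
Mean over the 5 lines of decitabine minus DMSO on the log2(normalised count + 1) scale for the 84 other genes of the pathway, by list, with bars for the SE and colours for genes that rose, fell or were not called (limma, adjusted p below 0.05). The lists of G1 kinases and of RB and E2F genes hold 6 falling genes each and no rising one, and MYC at -0.74 is the leftmost point.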

How the data were processed

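Stranded total RNA sequencing of 5 AML lines (10 groups of 3 libraries) was used. The name of the deposited table describes its signal as estimated counts that the authors divided by DESeq2 normalization factors; these are the normalised counts of the text. Per the submitters' processing notes, Salmon 1.2.1, STAR, featureCounts, DESeq2, limma and hg38 were used, without the role of each; whether the counting used strand is not given in the sources used here. Of 42 labelled libraries of 7 lines, the 12 of OCI-AML2 and THP-1 were not analysed here, and 12 columns that belong to no labelled sample were not used. The columns of OCI-AML3, KG-1 and MOLM-14 carry only a letter for the treatment, which was read as in the labels of MOLM-13 and SKM-1. Between 44.1% and 68.5% of low values were whole multiples of a library's step (tolerance 0.02), so a count model could not be used. The total of a library over its step served as its depth.

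Values were analysed as log2(normalised count + 1), which understates differences of low genes, for the 22168 genes that reached 10 in 3 or more libraries. A linear model with 10 group means was fitted with limma 3.58.1 (R 4.3.3, trend and robust, 20 residual degrees of freedom), with Benjamini-Hochberg adjustment over all genes tested within each contrast and a threshold of 0.05. The steps were checked on simulated data. Coordinates and lengths came from GENCODE 29 (GRCh38), which matched 58064 genes, and promoters from RefSeq. The members and lists were chosen with earlier results of these data known. All 10 members are named, with at most 4 called genes per list and direction by largest difference, CDKN1A, CDKN2A, CDK4, CDK6, RB1 and E2F1 in any case, and the 2 genes most like each member that spans more than 3 on the log2 scale between DMSO-treated lines. Alternatives were other pseudocounts, filters and scalings, library weights, single libraries, lines or the 6 shallow libraries left out, and a replicate block.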

Additional observations from a re-analysis of the deposited data

Results flagged for a closer look

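In 3 of the 10 genes the decitabine libraries lay wholly on one side of the DMSO libraries in one line and wholly on the other side in another, as in 13.9% of all genes tested. The difference between lines was not tested for these genes, since they were selected on this contrast. CCND1 had -0.341 in MOLM-13, against 0.646 in MOLM-14, 0.336 in OCI-AML3 and 1.155 in SKM-1. CCND2 had -0.169 in MOLM-13 and 0.761 in SKM-1, and CCNE1 0.189 in MOLM-13 and -0.478 in SKM-1. MOLM-13 is on 1 side in each of the 3 genes.

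Among the named pathway genes, 9 differed in response between lines by the limma F-test of the line differences, adjusted over all genes tested. MYC (F-test of limma, adjusted p = 1.01e-05) was lower in all 5 lines, between -1.32 in SKM-1 and -0.29 in OCI-AML3. ID2 (1.66e-05) had -0.19 in MOLM-13 and 1.27 in SKM-1, and CCNB1 (1.94e-05) and KPNA2 (6.05e-05) were higher in KG-1 (0.39 and 0.34) and lower in SKM-1 (-0.56 and -0.41). CCNA2 (0.0015) had -0.01 in KG-1 and -0.70 in SKM-1. CDKN1C (0.0124) had -2.09 in OCI-AML3 and 3.36 in SKM-1, at low levels. STAT5A (0.0331) had -0.33 in KG-1 and 1.42 in OCI-AML3, CCNC (0.0369) -0.38 in MOLM-13 and 0.12 in MOLM-14, and CDK9 (0.0395) -0.14 in MOLM-13 and 0.77 in OCI-AML3.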

How the results depend on the processing

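Of 550 alternative values of the 50 differences between decitabine and DMSO in the 10 genes, 34 were flagged as moved by 1 SD or more. The flag also fell on CDKN2B in MOLM-13, where every library was at 0, the SD was 0 and the value stayed at 0. Among separated groups 0 changed sides, an outcome that only the other scalings could have altered. Under both other scalings CCNA1 was higher without overlap in all 5 lines. Leaving out single libraries cannot make separated groups overlap, and 22 to 24 of 50 cases did not overlap (16 to 17 higher, 6 to 8 lower). In these fits 19 to 22 of 40 neighbour steps and 10 of 10 members passed between DMSO-treated lines. Both counts hold CDKN2B, whose tests between lines are not read. Of the pathway genes 9 to 11 rose, 20 to 23 fell, and 7 to 13 differed in response (7 without SKM-1 decitabine replicate 2). The number of pathway genes whose response differed was 7 with no filter, 35 with library weights and 22 without the 6 shallow libraries, where also 10 cases instead of 6 were lower. In that setting CDKN2D in MOLM-14 and OCI-AML3 and CCND3 in OCI-AML3 also became higher without overlap. Arms with fewer libraries separate more readily, so these added cases are not read further. Without SKM-1 7 pathway genes rose and 14 fell. Shares over all genes were not counted in the alternative fits, so the pathway counts given here have no background. Without the 6 shallow libraries the DMSO difference of CDKN2B between KG-1 and SKM-1 turned to -1.041, at levels near 0. Quantile normalization moved the median difference of all genes in SKM-1 to -0.083, against 0.082. In the labels same-numbered libraries share only a number, and the main fit did not pair them. In the values, 6 of 15 pairs had a correlation of deviations over 0.1 (-0.022 to 0.153). As a hint from the data, 12 of 15 correlated best with their own number, among them every library of OCI-AML3, KG-1 and MOLM-14, where replicate 2 is shallow in both arms. With a replicate block, 20 steps passed, 12 pathway genes rose, 22 fell and 13 differed in response, and CCNE2 in MOLM-13 over OCI-AML3 passed (limma, adjusted p = 0.0458). The block lost the calls of E2F1, CDKN1C and TFDP2 (limma, adjusted p = 0.0608, 0.0585 and 0.0724). Of 32 called named pathway genes 17 kept the call in all alternatives run. The shallow libraries limit what can be said of low genes: 1 read there is worth 4.30 to 10.3 normalised counts.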
